A study of Mus musculus with 34 samples.

Results

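Mouse embryonic stem (ES) cells of a line labelled 4x polyA KI were compared with ES cells of the wild-type (WT) line CJ9 on day 4 after withdrawal of LIF (leukemia inhibitory factor), which keeps such cells from differentiating. The members are the 6 RNA-seq libraries of these cultures, chosen by their titles, 3 knock-in and 3 WT, of 34 samples in the series. The labels write the cells as 4x polyA KI mES cells and CJ9 mES cells, and each line as LIF withdrawal at day 4. Both lines carry the strain label 129S1/SVImJ and had been kept in serum medium with LIF before its removal. The labels give neither the place of the insertion nor whether the knock-in line is 1 clone, and they do not say that libraries of a line come from separate cultures. The p-values below therefore measure the spread between these libraries, which may be technical, and a difference of the lines that is not due to the insertion cannot be told apart from its effect. All genes of the tables were used, and the account is of gene functions beyond the marker lists of the primitive streak and the epiblast.

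A cassette of polyadenylation signals ends a transcript that runs into it. ES cells deprived of LIF leave pluripotency, and many then spread on the dish, build actin stress fibres and cell-matrix contacts, and change how they use amino acids, handle growth factors and make ribosomes. Stretch and actin tension reach the nucleus through the serum response factor SRF and through YAP and TAZ, the coactivators held back by the Hippo kinases.

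Values are in FPKM, fragments scaled by transcript length and by the mapped fragments of the library, and a log2 change is that of FPKM + 1, knock-in over WT, so it understates changes of low genes. Called genes have a Benjamini-Hochberg (BH) adjusted p under 0.05 in a limma fit over the 13129 genes that averaged 1 FPKM or more. Evx1as, the transcript named in the study's embryo genotypes, which runs antisense beside the homeobox gene Evx1, was checked first, under its listed symbol 5730457N03Rik. It had 0.0674, 0.137 and 0.0798 FPKM in the knock-in libraries, against 5.99, 5.84 and 3.94 FPKM in the WT libraries (log2 change -2.50, limma, BH-adjusted p = 0.000302). Evx1 had 1.10, 0.848 and 2.83 FPKM in knock-in and 24.4, 28.4 and 38.6 FPKM in WT (log2 change -3.65, adjusted p = 0.000298). Neither gene's groups overlapped. Whether counting used the strand is not given in the sources used here, so reads of this overlapping pair may be shared.

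The libraries summed to 559513 to 582184 FPKM in knock-in and 502990 to 527295 FPKM in WT, and 12758 to 13073 genes reached 1 FPKM in a library. The tables hold no counts, so the depth is unknown. Pearson correlations of log2 values across genes were 0.962 to 0.970 within a line and 0.893 to 0.928 between lines. Pluripotency markers were present in every library. All 8 listed genes, among them Pou5f1 and Sox2, were tested, and 6 were higher in knock-in. Nanog (33.9, 31.8 and 33.9 FPKM in knock-in, 32.9, 37.8 and 50.6 FPKM in WT) and Dppa4 did not pass. The 8 genes summed to 1556 to 1710 FPKM in knock-in and 663 to 841 FPKM in WT. Utf1 alone was at 710, 633 and 621 FPKM in knock-in and 133, 160.5 and 152 FPKM in WT. Markers of blood, of endothelium and of striated muscle summed to at most 15.2 FPKM in any library, with Ptprc, Hbb-bh1 and Hba-x at 0. Markers of trophoblast summed to 225 to 264 FPKM in knock-in and 680 to 1215 FPKM in WT. Of the 7 tested of 11 listed, Gata3, Krt7, Krt8, Krt18 and Hand1 were lower. Eomes and Ascl2 did not pass (log2 changes 0.13 and 0.49), and Tpbpa and Prl3d1 were at 0 in all 6. Most of the sum came from the keratins Krt8 and Krt18, at 618 and 482 FPKM in WT replicate 2 and 128 and 97.0 FPKM in KI replicate 1. In such bulk RNA, fewer cells of a type and less RNA per cell cannot be told apart. WT replicate 3 was the WT library nearest to the knock-in values for 53.2% of the genes called lower and 49.2% of those called higher, and KI replicate 3 was the knock-in library nearest to WT for 46.1% and 49.3%.

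In knock-in cultures 2133 of the 13129 genes rose and 2122 fell, 16.2% and 16.2%, so 32.4% were called, with a median log2 change of 0.02 over all genes. The 3 values of one line lay wholly above or below those of the other for 48.4% of the genes. Changes past the threshold and over 1 on the log2 scale numbered 683 higher and 824 lower, over 2 they numbered 86 and 136, and over 3 they numbered 17 and 36. The number called depended on the libraries: without KI replicate 2 the calls were 1272 higher and 1375 lower, and without WT replicate 1 they were 1369 and 1462.

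The largest rises were taken among genes at 10 FPKM or more in one line, without overlap of the lines and beyond the marker lists. They were led by Eras, an ES cell RAS protein gene. Eras had 20.3, 24.5 and 16.7 FPKM in knock-in, against 0.17, 0 and 0.619 FPKM in WT (log2 change 4.10, limma, adjusted p = 9.81e-05). Its neighbour on chromosome X, Pcsk1n, which codes for an inhibitor of a prohormone convertase, was at 39.5 ± 12.2 FPKM in knock-in and 1.73 ± 0.870 FPKM in WT (SD, n = 3 each; log2 change 3.89). Trh, the precursor of thyrotropin-releasing hormone, had 52.5, 66.8 and 57.9 FPKM in the knock-in libraries and 7.74, 5.58 and 4.97 FPKM in the WT libraries. Its log2 change was 3.09 (adjusted p = 9.95e-05). Pim2, a survival kinase gene also on chromosome X, was at 345 ± 8.15 FPKM in knock-in and 50.7 ± 30.7 FPKM in WT. Others among the 12 largest were Cbr3 (a carbonyl reductase gene, log2 change 3.49), C1ql1 (a secreted C1q-like protein, 3.12), Pdzd4 (3.02), Bnip3 (a mitochondrial death and autophagy factor, 3.01), Spp1 (osteopontin, 2.93), Mt1 (2.92), Tcf15 (a helix-loop-helix factor, 2.92) and Dppa5b (2.90). The adjusted p of the 12 ran from 9.81e-05 for Eras to 0.00157 for Dppa5b.

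The largest falls beyond those lists were led by Sprr2a2. Sprr2a2, a small proline-rich protein of epithelial barriers, had 0.311, 0.395 and 0.17 FPKM in knock-in, against 78.5, 114 and 48.5 FPKM in WT (log2 change -5.90, limma, adjusted p = 6.73e-05). Sprr2a1 was listed at 0 in all 3 knock-in libraries, against 14.3, 17.6 and 8.23 FPKM in WT. Sprr2a1, Sprr2a2 and Sprr2a3 are near-identical copies among which reads may be split, so how the fall divides among them is uncertain. Cryab, a small heat shock protein of muscle and lens, stood at 6.32 ± 4.20 FPKM in knock-in and 99.2 ± 23.8 FPKM in WT (SD, n = 3 each; log2 change -3.91). Cited1, a transcriptional cofactor, was at 4.76 ± 2.33 FPKM in knock-in and 84.6 ± 20.5 FPKM in WT. Among the 12 were also Nnat (log2 change -4.65), Plagl1 (-4.28), Gata3 (-4.22), Igf2 (-4.14), Wnt10a (-3.96) and Gprc5a, an orphan receptor gene (-3.64). As with the rises, the 12 were picked among genes whose knock-in and WT values did not overlap, so that separation was set by the choice. The 5 trophoblast markers called lower above fell with them, and their part in these results was not tested.

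By absolute level, among called genes other than predicted and marker genes, Actb and Actg1 lost most and the translation genes Eef1a1 and Rpl8 gained most. Actb, cytoplasmic beta-actin, had 1735, 1708 and 2073 FPKM in knock-in, against 3571, 3728 and 3413 FPKM in WT (log2 change -0.96, limma, adjusted p = 0.000744), the largest loss among called genes other than predicted ones. Actg1, Bex1, Igfbp2, Ptms, Tpm1, Csrp1 and Slc2a3 followed, with mean levels of 2018, 777, 230.3, 487, 254, 139 and 134 FPKM in knock-in and 3221, 1333, 733, 975, 717, 518 and 505 FPKM in WT. The largest gain was in Eef1a1, the elongation factor that brings tRNA to the ribosome, with 4739, 4940.4 and 4519 FPKM in knock-in and 3429, 3461 and 3669 FPKM in WT (log2 change 0.43, adjusted p = 0.00762). Eef1a1 was not called in 2 of 12 alternatives, among them no filter on low values, and its adjusted p ran from 0.00346 to 0.136 over the alternatives. Among the next were Rpl8, AY036118, Hsp90ab1, Pkm2, Ftl1 and Mif, with log2 changes of 1.08, 0.74, 0.51, 0.74, 0.35 and 0.92. Rpl8 lies on chromosome 15, whose genes were on balance higher. Ribosomal, actin and elongation factor genes have near-identical copies in the genome, many of them among the predicted genes left out here, so reads may be shared. Hsp90ab1 was not called without KI replicate 2, WT replicate 1 or WT replicate 2 (adjusted p from 0.0647 to 0.0655), and Ftl1 was not called without KI replicate 1, KI replicate 2, WT replicate 1, WT replicate 2 or WT replicate 3 (adjusted p from 0.0651 to 0.152).

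To describe functions, 47 gene lists were used with 1390 different genes tested, of which 235 were higher and 323 lower, 40.1% against 32.4% of all genes. Medians were above 0 in 20 lists and below 0 in 27. In 16 lists more than 50% of the members tested were called. The lowest medians were those of annexins and related proteins (-1.08), actin and contractile genes (-0.99), Hippo genes (-0.88), insulin-like growth factor (IGF) genes (-0.66) and interferon response genes (-0.65). The highest were those of ribosome biogenesis (0.57), serine and glycine metabolism (0.43) and non-coding transcripts (0.39).

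**Figure D1:**
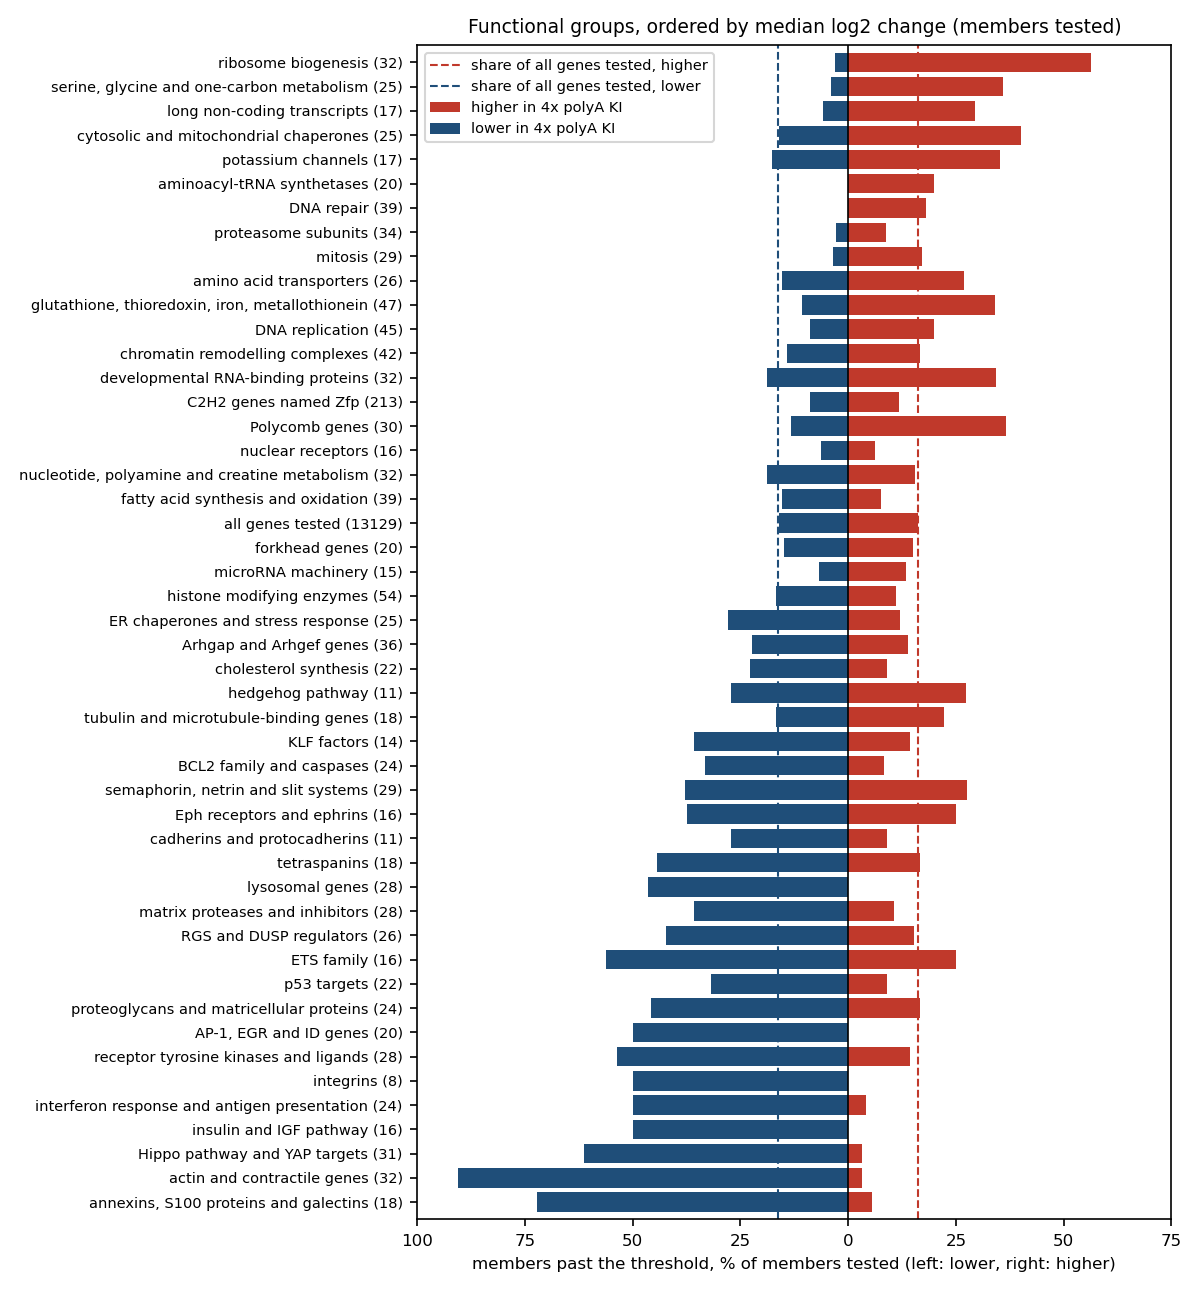
Members called higher (red, right) and lower (blue, left) in 4x polyA KI, as a percent of the members tested, in 47 functional groups and in all genes, ordered by median log2 change with the number tested in brackets; dashed lines mark 16.2%, the share of all genes in each direction. Actin and contractile genes have the longest blue bar, with 29 of 32 members lower, and ribosome biogenesis the longest red bar, with 18 of 32 higher.

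The actin and contractile genes were lower almost throughout. Of 37 named genes 32 were tested: 29 were lower, 1 was higher and 2 did not pass, with a median log2 change of -0.99 against 0.02 for all genes. Acta2, smooth muscle actin (ENSMUSG00000035783.8, chromosome 19 from 34315580 to 34329826 in the tables' build), had 7.13, 5.14 and 8.74 FPKM in knock-in, against 71.6, 58.0 and 25.6 FPKM in WT (log2 change -2.62, SE 0.36, limma, adjusted p = 0.00187). Lmod1, leiomodin, which starts actin filaments in muscle, had 0.637, 0.397 and 0.754 FPKM in knock-in and 9.54, 8.25 and 3.43 FPKM in WT (log2 change -2.25). In both genes WT replicate 3 was the lowest WT library and still lay above every knock-in library.

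Genes that many cell types use to build stress fibres fell with them. Tagln, transgelin, had 172, 156 and 181 FPKM in knock-in, against 545, 550.4 and 398 FPKM in WT (log2 change -1.54, limma, adjusted p = 0.000504). Csrp1, a LIM protein of actin bundles, was at 139 ± 22.6 FPKM in knock-in and 518 ± 168 FPKM in WT (SD, n = 3 each), and Tpm1, a tropomyosin, at 254 ± 10.7 FPKM in knock-in and 717 ± 78.0 FPKM in WT. The filamins Flnc and Flna, which cross-link actin, fell (log2 changes -1.91 and -1.11). Tagln2 fell by 1.53 and the cross-linker gene Actn1 fell by 1.39. Of genes of cell-matrix contacts, Vcl (vinculin) fell by 1.29 and Zyx (zyxin) fell by 0.92. Cnn2, Myl9 and Cald1, regulators of myosin contraction, fell (log2 changes -1.30, -1.21 and -1.01). Srf, the factor that drives many of these genes, was at 47.9 ± 3.21 FPKM in knock-in and 65.4 ± 3.45 FPKM in WT and fell by 0.44 (adjusted p = 0.0199), but was not called without KI replicate 2, WT replicate 2 or WT replicate 3 (adjusted p from 0.0519 to 0.0757). Tpm4 did not pass, with 45.8 FPKM in knock-in and 79.8 FPKM in WT. The exception was Des, desmin, the intermediate filament of muscle, at 8.74, 8.71 and 5.75 FPKM in knock-in and 3.01, 3.23 and 2.61 FPKM in WT (log2 change 1.13, adjusted p = 0.00442). The smooth muscle marker list shares Acta2, Tagln, Lmod1, Cnn1 and Des with this one and summed to 192 to 219 FPKM in knock-in and 467 to 667 FPKM in WT, while Myh11, its defining myosin, was under 0.5 FPKM in every library. Its part in the fall of the other contractile genes was not tested. Between 24 and 27 contractile genes were called lower whichever library was left out, and 23 of the 24 tested outside chromosomes 1, 8, 14 and 15.

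**Figure D2:**
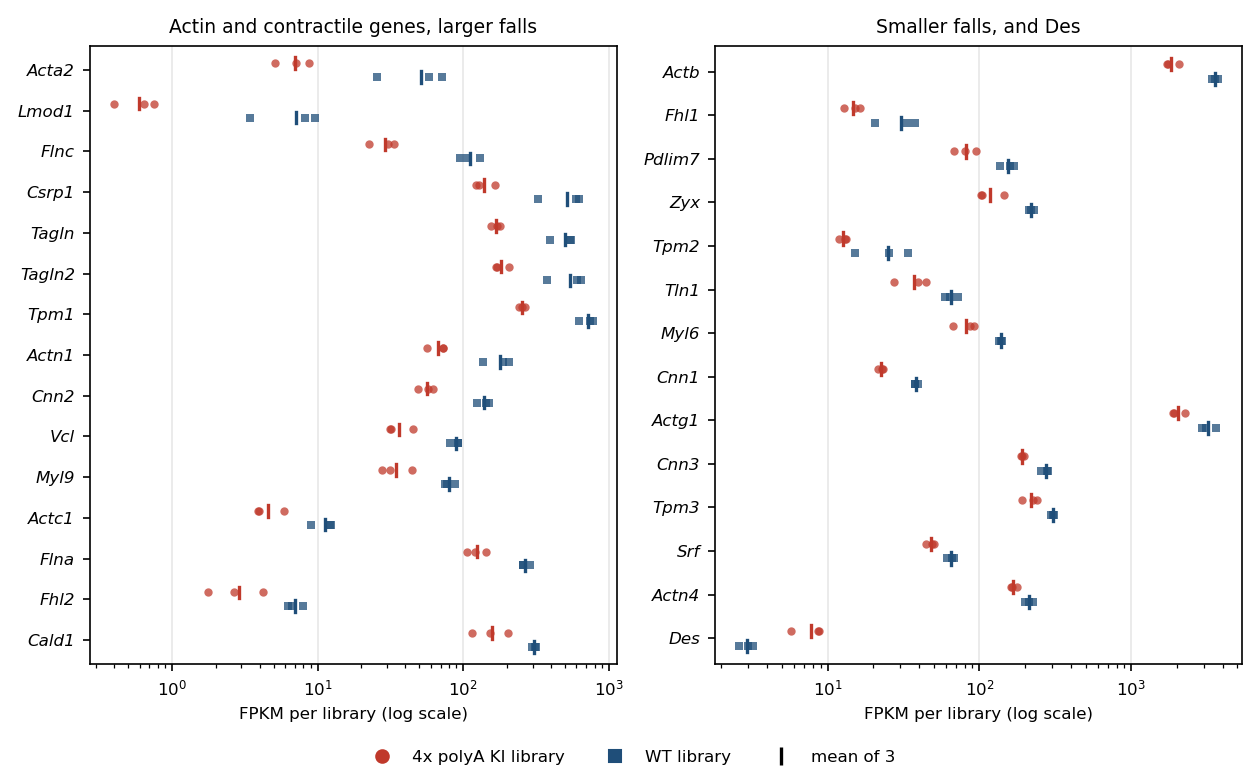
FPKM of 29 of the 30 called actin and contractile genes in each library on log axes, knock-in circles (red) above WT squares (blue), bars at the mean of 3, ordered by log2 change. All 3 knock-in libraries lie below all 3 WT libraries for every gene shown except Des, in the last row of the right panel, where they lie above. Called genes were chosen by their difference between the lines, which favours such separation. Of all genes tested 48.4% had no overlap of the lines.

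SRF acts at CArG boxes, a motif of A and T bases between CC and GG. In the RefSeq promoter windows of GRCm38.p6 (reaching from before each start to shortly after it, 300 bases in all), 9 of the 29 contractile genes with a window held at least 1 CArG box, 31%, against 1.69% of the 7892 tested genes with a window and 1.63% of all 32851 windows. A CArG box was in 1 of 15 genes of the AP-1, EGR and ID list. The 9 were Cnn2, Vcl, Myl9, Actc1, Fhl2, Fhl1, Myl6, Actg1 and Srf, all called lower, though Fhl1 was not called without KI replicate 1, WT replicate 1 or WT replicate 2 (adjusted p from 0.0509 to 0.0548) and Srf was not called under the omissions given above. A match is a description of letters and not evidence of binding. The windows of the 3 genes among them that fell by more than 1 on the log2 scale and lie outside chromosomes 1, 8, 14 and 15 are shown, with the CArG box in capitals, 5′ to 3′ on the gene's strand: Cnn2 (chr10:79988350-79988649, plus strand), Myl9 (chr2:156775214-156775513, plus strand) and Actc1 (chr2:114052826-114053125, minus strand). Counted from the start, the box begins at position -56 in Cnn2, -161 in Myl9 and -47 in Actc1.
Cnn2: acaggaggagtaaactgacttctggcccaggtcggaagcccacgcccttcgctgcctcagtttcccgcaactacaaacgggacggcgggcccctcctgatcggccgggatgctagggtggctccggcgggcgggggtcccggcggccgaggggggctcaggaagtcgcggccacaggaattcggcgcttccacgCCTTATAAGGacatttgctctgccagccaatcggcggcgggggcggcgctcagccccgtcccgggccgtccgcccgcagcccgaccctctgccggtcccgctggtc
Myl9: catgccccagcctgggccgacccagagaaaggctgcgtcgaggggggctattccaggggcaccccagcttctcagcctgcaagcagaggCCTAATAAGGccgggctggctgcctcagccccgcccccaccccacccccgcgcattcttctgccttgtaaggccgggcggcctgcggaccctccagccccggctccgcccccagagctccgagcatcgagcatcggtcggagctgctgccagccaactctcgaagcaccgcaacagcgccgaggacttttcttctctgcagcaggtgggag
Actc1: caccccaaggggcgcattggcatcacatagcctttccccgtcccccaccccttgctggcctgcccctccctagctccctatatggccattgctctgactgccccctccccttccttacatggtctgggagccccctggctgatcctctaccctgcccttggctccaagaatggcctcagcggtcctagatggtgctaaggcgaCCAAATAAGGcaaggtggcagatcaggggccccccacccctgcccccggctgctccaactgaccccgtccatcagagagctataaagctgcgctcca

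Genes of the Hippo pathway and targets of YAP were mostly lower. Of 34 named 31 were tested: 19 were lower, 1 higher and 11 did not pass (median log2 change -0.88, against 0.02 for all genes). Outside chromosomes 1, 8, 14 and 15 the counts were 13 lower and 1 higher of 24 (median -0.74). The falls were among inhibitors, DNA-binding partners and targets of YAP, though not in every member. Among the inhibitors, Lats2, a kinase that marks YAP for retention in the cytoplasm, had 3.34, 2.69 and 3.09 FPKM in knock-in, against 17.4, 18.5 and 18.9 FPKM in WT (log2 change -2.26, limma, adjusted p = 0.000128). Its cofactor gene Mob1a fell by 1.91, and Amot, Amotl1 and Amotl2, the angiomotins that tether YAP, fell (log2 changes -1.72, -0.93 and -1.11). Ptpn14 and Wwc2, which also restrain YAP, fell (log2 changes -1.43 and -1.40). Lats2 lies on chromosome 14, Ptpn14 on chromosome 1 and Wwc2 on chromosome 8. Sav1, another member of the list, did not pass (log2 change -0.22).

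The DNA-binding partners of YAP changed unevenly. Tead4 had 1.15, 1.16 and 1.53 FPKM in knock-in and 8.90, 8.59 and 7.32 FPKM in WT (log2 change -2.03), Tead1 fell by 1.19 and Tead3 fell by 0.88, while the most abundant of the family, Tead2, was at 134 ± 3.30 FPKM in knock-in and 105 ± 25.6 FPKM in WT and did not pass. The TEAD cofactors Vgll3 and Vgll4 fell (log2 changes -2.35 and -1.80). Wwtr1, which codes for TAZ, fell by 0.71, and Yap1 itself was at 52.1 ± 2.74 FPKM in knock-in and 53 ± 8.24 FPKM in WT (log2 change -0.01). Among the classical targets, Cyr61 had 78.8, 62.5 and 70.5 FPKM in knock-in, against 215, 188 and 131 FPKM in WT, and Tgfb2 0.935, 1.12 and 1.06 FPKM in knock-in, against 13.9, 12.5 and 9.45 FPKM in WT, with no overlap in either gene. Ctgf, another target, did not pass (27.4 ± 6.76 FPKM in knock-in and 44.1 ± 19.2 FPKM in WT). Fjx1 was the member called higher (log2 change 0.90), and it was not called without KI replicate 1, KI replicate 2, KI replicate 3, WT replicate 1 or WT replicate 2 (adjusted p from 0.0611 to 0.0804).

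The TEAD recognition letters GGAATG, on either strand, were in the RefSeq windows of 13 of 22 Hippo genes with a window, 59.1%, against 14.5% of the tested genes and 14.7% of all windows. Of the 13, Axl, Sav1 and Yap1 did not pass and the others were lower. The list holds YAP targets by choice, and the motif is short and is described here by its letters only. Windows of Vgll3 (chr16:65814939-65815238, plus strand) and Lats2 (chr14:57746074-57746373, minus strand) are shown because these were the largest falls among the 13, with the motif in capitals. In Vgll3 it reads on the opposite strand.
Vgll3: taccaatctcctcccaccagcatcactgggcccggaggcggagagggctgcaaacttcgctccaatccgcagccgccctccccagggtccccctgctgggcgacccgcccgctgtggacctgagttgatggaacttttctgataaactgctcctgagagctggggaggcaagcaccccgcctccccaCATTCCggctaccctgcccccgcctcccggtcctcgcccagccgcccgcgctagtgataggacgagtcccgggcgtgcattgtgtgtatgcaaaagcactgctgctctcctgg
Lats2: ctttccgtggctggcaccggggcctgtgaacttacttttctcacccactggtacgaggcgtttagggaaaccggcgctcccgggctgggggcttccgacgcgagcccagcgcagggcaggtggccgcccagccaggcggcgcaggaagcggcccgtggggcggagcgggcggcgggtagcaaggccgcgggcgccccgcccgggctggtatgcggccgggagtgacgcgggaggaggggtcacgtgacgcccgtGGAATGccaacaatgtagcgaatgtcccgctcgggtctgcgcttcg

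Annexins and S100 proteins, which bind calcium, and galectins, which bind sugars, were mostly lower. Of 18 annexin, S100 and galectin genes tested, of 34 named, 13 were lower and 1 was higher (median log2 change -1.08). Lgals3, galectin-3, had 13.3, 15.1 and 20.3 FPKM in knock-in, against 77.3, 136 and 76.7 FPKM in WT (log2 change -2.47, limma, adjusted p = 0.000616). Anxa2 and its partner S100a10, which together form a membrane-bound tetramer, were at 19.7 ± 4.70 and 212 ± 5.52 FPKM in knock-in and 78.2 ± 6.86 and 449 ± 72.5 FPKM in WT (SD, n = 3 each). S100a11 fell by 2.11, S100a6 fell by 1.92, Anxa3 fell by 1.51, Anxa6 fell by 1.49 and Anxa5 fell by 1.34. Anxa11 was the member called higher (log2 change 0.68), and Lgals1 did not pass (84.4 FPKM in knock-in and 117 FPKM in WT).

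Genes of the cell surface and matrix followed the same direction with more exceptions. Of 8 integrin genes tested 4 were lower and none higher, a count that was 2 without KI replicate 2 or without WT replicate 1. The receptor chains Itga3 and Itga5 fell (log2 changes -1.16 and -0.95). Among 24 proteoglycans and matricellular genes 11 were lower and 4 higher (median -0.51). Thbs1, thrombospondin-1, had 14, 13.3 and 25.5 FPKM in knock-in, against 102, 97.0 and 72.9 FPKM in WT (log2 change -2.35, limma, adjusted p = 0.000741), while Spp1 rose, with 28.5, 27.4 and 19.3 FPKM in knock-in and 2.11, 1.56 and 3.85 FPKM in WT. Efemp1 fell by 2.58, Bgn (biglycan) fell by 2.34, the basement membrane gene Hspg2 (perlecan) fell by 1.30 and Sparc fell by 1.12. Spock2 and Fbln1 were also higher (1.86 and 1.15), and so was Thbs3 (1.04), which was not called without KI replicate 2, KI replicate 3, WT replicate 1 or WT replicate 3 (adjusted p from 0.0705 to 0.113). The trophoblast marker sum, with its keratins, fell beside these surface genes, and its part was not tested.

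Matrix proteases and their inhibitors gave 10 lower and 3 higher of 28 tested (median -0.45), with 1 higher without KI replicate 2, KI replicate 3 or WT replicate 2. Mmp9 was at 1.75 ± 0.716 FPKM in knock-in and 11.7 ± 6.05 FPKM in WT, and Mmp14, the membrane-bound collagenase, at 17.2 ± 1.45 FPKM in knock-in and 53.3 ± 2.72 FPKM in WT (SD, n = 3 each; log2 changes -2.11 and -1.57). Serpinh1, the collagen chaperone, fell by 1.35 and the urokinase receptor gene Plaur fell by 0.98. Of 18 tetraspanins 8 were lower and 3 higher (median -0.43), with log2 changes of -1.87 for Tspan9, -1.16 for Cd81, -1.12 for Cd9 and 1.23 for Tspan4. Cadherins and protocadherins gave 3 lower and 1 higher of 11, so 36.4% were called, near the 32.4% of all genes. None were higher without KI replicate 2, KI replicate 3 or WT replicate 2. Pcdh7 had 0.238, 0.364 and 0.549 FPKM in knock-in, against 9.62, 10.0 and 11.8 FPKM in WT (log2 change -3.06, limma, adjusted p = 9.95e-05).

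Microtubule genes changed in both directions. Of 18 tested 4 were higher and 3 lower, with a median of -0.18, so 38.9% were called against 32.4% of all genes. Outside chromosomes 1, 8, 14 and 15 the counts were 1 higher and 2 lower of 13 (median -0.38). Tuba1b, an abundant alpha-tubulin on chromosome 15, was at 1294 ± 108 FPKM in knock-in and 914 ± 86.6 FPKM in WT (log2 change 0.50) and was not called without WT replicate 2 (adjusted p = 0.0509), and Tubb6 was at 211 ± 4.59 FPKM in knock-in and 412 ± 46.7 FPKM in WT (log2 change -0.96; SD, n = 3 each). Genes named Arhgap and Arhgef, which switch off and on small GTPases that set actin assembly, gave 8 lower and 5 higher of 36, near the share of all genes. Arhgap23 fell by 1.6 and Arhgef5 fell by 1.39. Without KI replicate 2 the counts of these regulators were 4 lower and 3 higher, and the higher count was also 3 without KI replicate 1, WT replicate 1 or WT replicate 2. The higher tubulin count was 1 without WT replicate 2 and 2 without KI replicate 2 or WT replicate 1, and the lower one was 5 without KI replicate 3.

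Insulin and IGF genes were lower where they were called. Of 16 tested 8 were lower and none higher (median -0.66). Igf2, the imprinted fetal growth factor (ENSMUSG00000048583.9, chromosome 7 from 149836673 to 149852721 in the tables' build), had 9.37, 11.3 and 15.9 FPKM in knock-in, against 289, 302 and 132 FPKM in WT (log2 change -4.14, SE 0.33, limma, adjusted p = 0.000286). WT replicate 3 had less Igf2 than the other WT libraries and still lay far above the knock-in libraries. Of the binding proteins, Igfbp3 had 65.5, 63.9 and 87.2 FPKM in knock-in and 354, 449 and 463 FPKM in WT, and Igfbp2 275, 216 and 200.5 FPKM in knock-in and 843, 894 and 461 FPKM in WT. The receptor gene Igf1r fell by 1.09, and the adaptors that carry its signal inwards, Irs1 and Irs2, fell (log2 changes -1.95 and -1.63). Insr was at 4.60 ± 0.458 FPKM in knock-in and 4.92 ± 0.927 FPKM in WT and did not pass. Igf2bp3, an RNA-binding protein of Igf2 mRNA, fell by 1.76, while Igf2bp1, at 93.0 FPKM in knock-in and 111 FPKM in WT, did not pass. Without WT replicate 3 the counts were 9 lower and 2 higher. Igfbp2 lies on chromosome 1, and outside chromosomes 1, 8, 14 and 15 the counts were 5 lower and none higher of 11 (median -0.49).

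Hedgehog genes changed in both directions. Ptch1, the receptor gene that the pathway itself induces, had 15.2, 14.3 and 10.9 FPKM in knock-in, against 3.70, 3.49 and 3.97 FPKM in WT (log2 change 1.61, limma, adjusted p = 0.000624). Gli1, the other common readout of the pathway, had 5.25, 5.10 and 4.84 FPKM in knock-in and 1.72, 1.18 and 1.68 FPKM in WT (log2 change 1.27, adjusted p = 0.00163). The groups overlapped in neither gene. The effectors Gli2 and Gli3 were lower, Gli2 at 2.59, 1.71 and 2.41 FPKM in knock-in and 11.9, 13.1 and 16.1 FPKM in WT (log2 change -2.18) and Gli3 with a log2 change of -0.90. Gli3 was not called without KI replicate 1, KI replicate 2, WT replicate 1 or WT replicate 2 (adjusted p from 0.0625 to 0.0737). Scube3, a secreted protein of the family that helps release the ligand, fell by 1.81. Smo and Sufu, which pass on and restrain the signal, did not pass, with 24.6 and 17.6 FPKM in knock-in and 20.3 and 19.8 FPKM in WT. Of 11 hedgehog genes tested, of 21 named, 3 were higher and 3 lower (median -0.17).

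**Figure D3:**
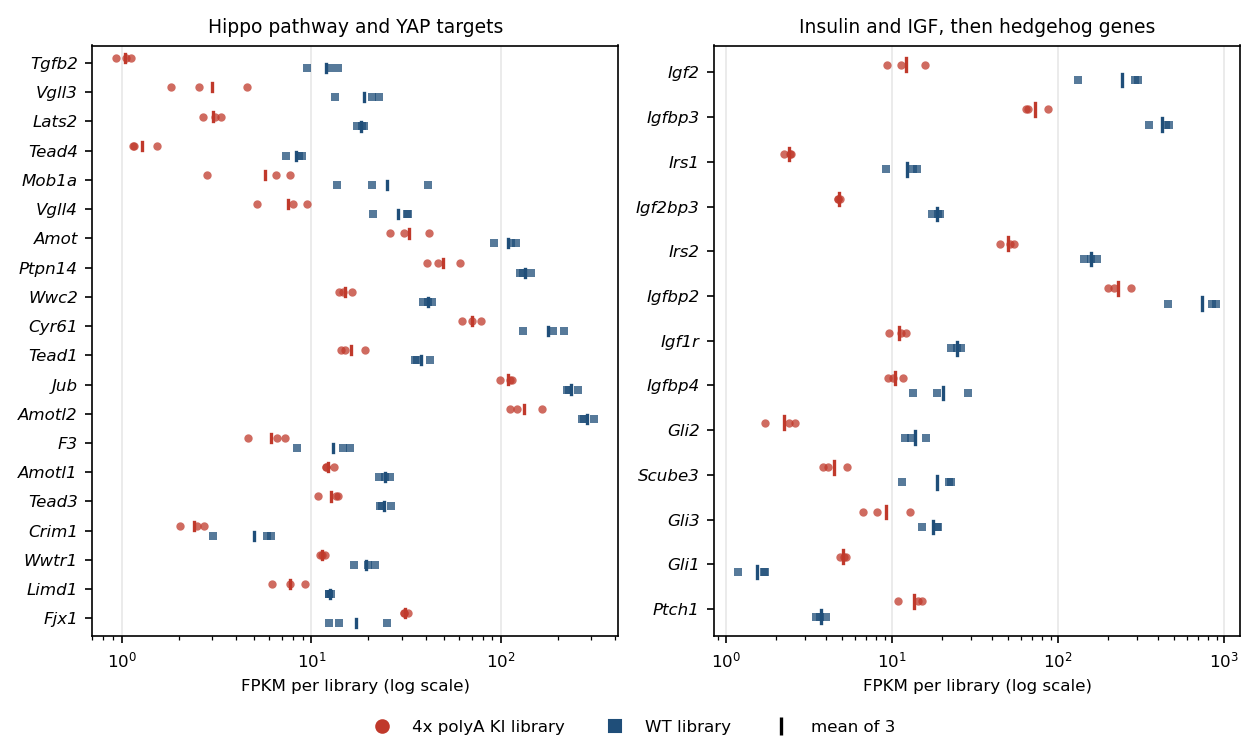
FPKM of the called Hippo pathway genes and YAP targets (left) and of the called insulin and IGF genes, then 5 of the 6 called hedgehog genes (right) in each library on log axes, knock-in circles (red) above WT squares (blue), bars at the mean of 3. In the right panel the hedgehog readouts Gli1 and Ptch1, in the last 2 rows, lie to the right of WT, and every other gene of that panel lies to its left.

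Receptor tyrosine kinases and their ligands, FGF and Eph systems aside, gave 15 lower and 4 higher of 28 tested (median -0.55). The ligand Csf1, which acts on macrophages and trophoblast, had 5.32, 6.24 and 6.98 FPKM in knock-in, against 75.1, 77.7 and 48.7 FPKM in WT (log2 change -3.22, limma, adjusted p = 0.000128). Several platelet-derived growth factor genes were lower: Pdgfa fell by 1.90, Pdgfb fell by 1.48 and Pdgfrb fell by 1.28, and the receptor-like gene Pdgfrl was at 1.10 ± 0.594 FPKM in knock-in and 15.7 ± 5.44 FPKM in WT (SD, n = 3 each). Egfr fell by 1.36. Tyro3, a receptor of the AXL family, rose by 1.11. Without KI replicate 2 or without WT replicate 2, 9 members were lower and 2 higher. The higher count was also 2 without KI replicate 1 or WT replicate 1, and it was 1 without WT replicate 3. Feedback genes of kinase signalling and of G proteins gave 11 lower and 4 higher of 26. The MAP kinase phosphatase gene Dusp4 had 26.1, 26.9 and 36.1 FPKM in knock-in, against 150.3, 149 and 118 FPKM in WT (log2 change -2.20), and Dusp14 fell by 2.06 and Dusp1 fell by 1.16, while Dusp7 rose by 0.82. The higher count of that list was 1 without KI replicate 2, WT replicate 1 or WT replicate 3, and 2 without KI replicate 1 or WT replicate 2.

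Guidance systems that steer cells and axons changed in both directions. Nrp2, a co-receptor for semaphorins and vascular growth factors (ENSMUSG00000025969.9, chromosome 1 from 62749859 to 62865269 in the tables' build), had 1.68, 2.25 and 4.00 FPKM in knock-in, against 40.8, 41.7 and 42.2 FPKM in WT (log2 change -3.60, SE 0.23, limma, adjusted p = 0.000128). The receptors Unc5b and Plxna1 fell (log2 changes -1.35 and -1.33), and the ligand gene Sema3b fell by 1.77. Other semaphorins were higher, with Sema6c at 12.0 ± 4.12 FPKM in knock-in and 3.12 ± 1.79 FPKM in WT (SD, n = 3 each; log2 change 1.71) and Sema4d with a log2 change of 0.96. In all 11 of 29 semaphorin, netrin and slit genes were lower and 8 higher. The lower count was 7 without KI replicate 2, KI replicate 3 or WT replicate 2, and the higher count was 4 without KI replicate 2 and 5 without KI replicate 1. Of 16 Eph receptors and ephrins 6 were lower and 4 higher. Efnb1, the ephrin on chromosome X, had 3.36, 3.40 and 3.34 FPKM in knock-in, against 21.5, 28.6 and 14.2 FPKM in WT (log2 change -2.31), and the receptor gene Epha8 rose by 1.86. The higher Eph count was 2 without KI replicate 1, KI replicate 2 or WT replicate 1.

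Genes of serine, glycine and one-carbon metabolism were higher in all called cases but 1. This network supplies carbon units for nucleotides and methylation, and mouse ES cells draw on threonine for it. Of 25 tested 9 were higher and 1 lower (median 0.43, against 0.02 for all genes). Tdh, threonine dehydrogenase, had 16.2, 16.0 and 19.0 FPKM in knock-in, against 5.01, 2.98 and 3.74 FPKM in WT (log2 change 1.90, limma, adjusted p = 0.000528). Gcat, which carries out the next step to glycine, rose by 1.38. Gldc, which cleaves glycine in mitochondria (ENSMUSG00000024827.8, chromosome 19 from 30172939 to 30249908 in the tables' build), had 41.5, 35.6 and 31 FPKM in knock-in, against 7.08, 7.87 and 6.08 FPKM in WT (log2 change 2.21, SE 0.16, adjusted p = 0.000195). All 3 knock-in libraries lay above all 3 WT libraries for both Tdh and Gldc.

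Steps of serine synthesis did not move alike. Psat1 was at 153 ± 33.2 FPKM in knock-in and 72.1 ± 18.4 FPKM in WT and Psph at 26.3 ± 19.1 FPKM in knock-in and 7.01 ± 1.48 FPKM in WT (SD, n = 3 each; log2 changes 1.08 and 1.56). Phgdh, the first step, did not pass, with 45.7 FPKM in knock-in and 34.9 FPKM in WT. Cbs and Cth, the consecutive steps from homocysteine to cysteine, moved in opposite directions, with Cbs rising by 1.73 and Cth falling by 0.51. Psph was not called without KI replicate 2, WT replicate 1, WT replicate 2 or WT replicate 3 (adjusted p from 0.0501 to 0.0888), and Cth was not called without KI replicate 2, KI replicate 3, WT replicate 1 or WT replicate 2 (adjusted p from 0.0515 to 0.0758). Shmt1 rose by 0.68. Gcat lies on chromosome 15 and Tdh on chromosome 14, and outside chromosomes 1, 8, 14 and 15 the counts were 7 higher and 1 lower of 22. Of the 8 pluripotency markers 6 were higher in the same libraries, and their part in these results was not tested.

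Some genes of amino acid supply and its stress response were also higher, and others were lower. Atf4, the factor induced when amino acids run short, had 336, 326 and 223 FPKM in knock-in, against 103, 92.6 and 96.5 FPKM in WT (log2 change 1.57, limma, adjusted p = 0.000689), and it lies on chromosome 15. Chac1, an ATF4 target that degrades glutathione, had 54.7, 48.6 and 15.4 FPKM in knock-in, against 3.46, 5.29 and 9.48 FPKM in WT (log2 change 2.42). Trib3, an ATF4 target that binds kinases, had 60.8, 44.0 and 11.5 FPKM in knock-in, against 4.45, 10.3 and 8.82 FPKM in WT (log2 change 1.95). In Atf4, Chac1 and Trib3 the groups did not overlap, and KI replicate 3 was the lowest knock-in library in each. Trib3 was not called without KI replicate 1, KI replicate 2, WT replicate 1, WT replicate 2 or WT replicate 3 (adjusted p from 0.0577 to 0.112). Other ATF4 targets did not pass: Asns was at 33.3 ± 16.4 FPKM in knock-in and 33.1 ± 6.59 FPKM in WT, and Ddit3 at 21.7 ± 10.3 FPKM in knock-in and 9.22 ± 1.31 FPKM in WT. Genes of the folding response of the endoplasmic reticulum (ER) were called in both directions. Hspa5 had 158 FPKM in knock-in and 159.8 FPKM in WT, and Calr, a calcium-binding chaperone, and Edem1 fell (log2 changes -0.79 and -1.41). Of the 25 ER and stress genes tested 3 were higher and 7 lower (median -0.13), with 5 higher without KI replicate 3 and 2 without any 1 of the other libraries. Transporters of amino acids gave 7 higher and 4 lower of 26, 42.3% called against 32.4% of all genes, with 4 higher without KI replicate 2. Slc7a3, a carrier of cationic amino acids, was at 56.7 ± 7.13 FPKM in knock-in and 21.8 ± 7.34 FPKM in WT, and Slc6a6, the taurine carrier, at 14.3 ± 1.17 FPKM in knock-in and 72.4 ± 5.06 FPKM in WT (log2 changes 1.38 and -2.26; SD, n = 3 each). Of 20 aminoacyl-tRNA synthetases 4 were higher and none lower, so 20% were called, below the 32.4% of all genes. Sars rose most (log2 change 1.13). Sars was not called without KI replicate 1, KI replicate 2, WT replicate 1, WT replicate 2 or WT replicate 3 (adjusted p from 0.0845 to 0.136). The synthetase count was 0 without KI replicate 2 or WT replicate 1 and 7 without KI replicate 3, with 1 or 2 without the others.

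The composite element of ATF4 is searched here as TGATGNAA on both strands. It was in 5 of 23 ER and stress genes with a RefSeq window (21.7%), 5 of 12 synthetase genes (41.7%), 3 of 19 amino acid transporter genes (15.8%) and 0 of 21 serine and glycine genes, against 2.47% of tested genes and 3.97% of all windows. Of the 5 ER and stress genes Chac1 and Trib3 were higher, Atf3 was lower and Asns and Herpud1 did not pass, and of the 5 synthetase genes Yars and Tars were higher and Gars, Aars and Iars did not pass. Yars was not called without KI replicate 1, KI replicate 2, WT replicate 1, WT replicate 2 or WT replicate 3 (adjusted p from 0.0541 to 0.100), and Tars was not called without KI replicate 2 or WT replicate 1 (adjusted p from 0.0506 to 0.0522). Chac1 (chr2:119350992-119351291, plus strand) and Trib3 (chr2:152344011-152344310, minus strand) are shown because they were the largest rises among the ER and stress genes, with the motif, which reads on the opposite strand in both, in capitals.
Chac1: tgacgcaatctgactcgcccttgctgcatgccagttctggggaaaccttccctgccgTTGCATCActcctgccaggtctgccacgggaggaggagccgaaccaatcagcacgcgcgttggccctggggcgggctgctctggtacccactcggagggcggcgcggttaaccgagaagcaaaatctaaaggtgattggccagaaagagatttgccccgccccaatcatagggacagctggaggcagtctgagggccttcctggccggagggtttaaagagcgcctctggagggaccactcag
Trib3: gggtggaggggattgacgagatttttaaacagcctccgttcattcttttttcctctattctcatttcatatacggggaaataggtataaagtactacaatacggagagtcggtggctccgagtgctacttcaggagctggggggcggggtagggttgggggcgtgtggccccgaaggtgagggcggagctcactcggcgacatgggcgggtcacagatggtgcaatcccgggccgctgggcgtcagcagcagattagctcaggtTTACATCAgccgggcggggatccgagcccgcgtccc

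Metallothioneins and glutathione enzymes included some of the larger rises. Mt1, a small metal-binding protein, had 104, 74.7 and 72.2 FPKM in knock-in, against 14, 6.78 and 10.4 FPKM in WT (log2 change 2.92, limma, adjusted p = 0.000353). Its neighbour Mt2 had 99.5, 64.0 and 89.5 FPKM in knock-in, against 27, 30.9 and 21.3 FPKM in WT (log2 change 1.63, adjusted p = 0.00119). Both lie on chromosome 8, whose genes were on balance lower. Gsta4, a glutathione transferase for lipid aldehydes, was at 74.7 ± 3.07 FPKM in knock-in and 15.5 ± 2.78 FPKM in WT (SD, n = 3 each; log2 change 2.21). Gclm, a subunit of the enzyme that begins glutathione synthesis, rose by 0.96, and its partner Gclc rose by 0.67 but was not called without WT replicate 1 or WT replicate 2 (adjusted p from 0.0555 to 0.0593). Txn2, mitochondrial thioredoxin, on chromosome 15, rose by 1.04 and the ferritin chain gene Fth1 by 0.62. Gpx1, a glutathione peroxidase, fell by 0.78. Heme oxygenase, Hmox1, did not pass (44.8 FPKM in knock-in and 56.4 FPKM in WT). Of 47 such genes tested 16 were higher and 5 lower (median 0.15), and 10 were higher without WT replicate 1, with 1 lower there and without KI replicate 2 or WT replicate 2. The metal response element, searched as TGCACNC or TGCGCNC on both strands, was in 14 of 39 of these genes with a RefSeq window (35.9%), against 42.4% of tested genes and 25.7% of all windows.

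**Figure D4:**
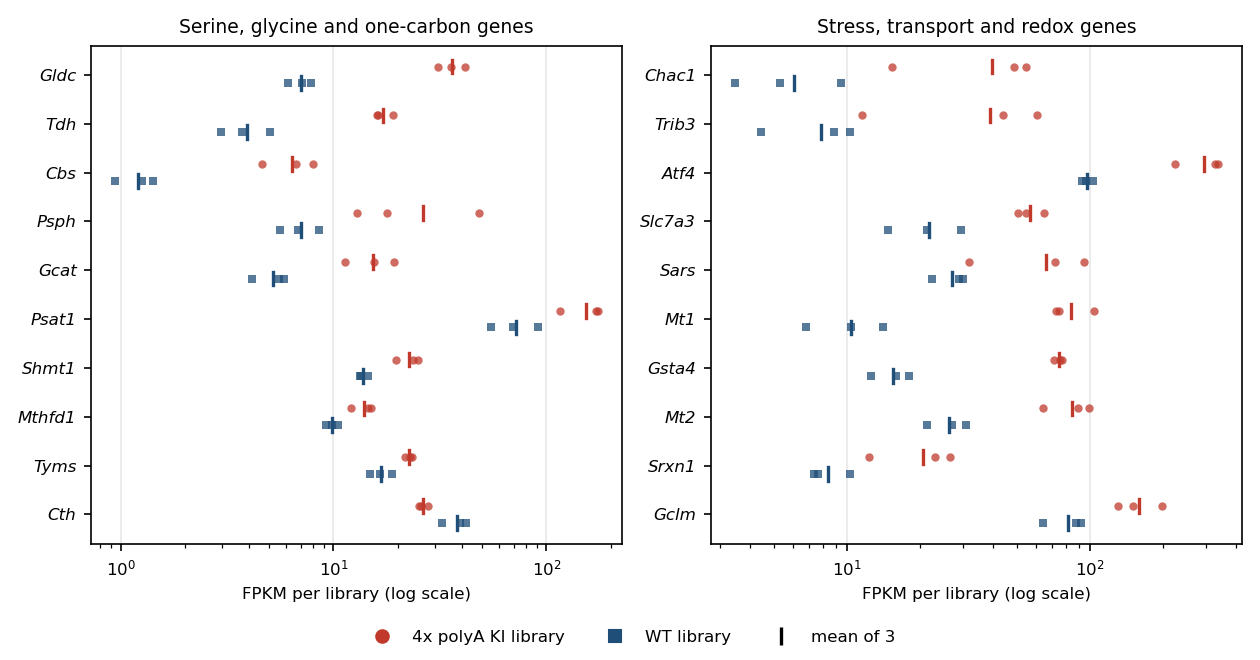
FPKM of the 10 called genes of serine, glycine and one-carbon metabolism (left) and of 10 stress, transport and redox genes (right) in each library on log axes, knock-in circles (red) above WT squares (blue), bars at the mean of 3. Cth, in the last row of the left panel, is the only gene of these 20 whose knock-in libraries lie below the WT libraries.

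Lipid and nucleotide metabolism showed no common direction. Cholesterol synthesis gave 2 higher and 5 lower of 22 (median -0.14) and 1 and 3 without KI replicate 2, WT replicate 1 or WT replicate 2, with Sqle, on chromosome 15, rising by 1.05. Fatty acid genes gave 3 higher and 6 lower of 39, with 1 higher without KI replicate 1 or WT replicate 2. Among the lower were Elovl1 (log2 change -1.63) and the lipid droplet gene Plin2 (-1.42). Nucleotide, polyamine and creatine genes gave 5 higher and 6 lower of 32. Of the cholesterol, fatty acid and nucleotide lists 31.8%, 23.1% and 34.4% were called, against 32.4% of all genes. Srm, spermidine synthase, was at 186 ± 7.00 FPKM in knock-in and 82.9 ± 13.0 FPKM in WT (SD, n = 3 each; log2 change 1.17, limma, adjusted p = 0.000963), and the purine genes Gart and Adsl rose by 0.85 and 1.21.

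Ribosome biogenesis had the highest median of the lists. Of 32 tested 18 were higher and 1 lower (median 0.57, against 0.02 for all genes). Fbl, fibrillarin, which methylates ribosomal RNA, had 72.0, 70.0 and 35.3 FPKM in knock-in, against 25, 26.3 and 22.6 FPKM in WT (log2 change 1.16, limma, adjusted p = 0.0126). Nop10, a subunit of the pseudouridine complex, had 132, 127 and 144 FPKM in knock-in and 57.8, 54.0 and 50.5 FPKM in WT (log2 change 1.30). Its partners Nhp2, Gar1 and Dkc1 rose by 0.66, 0.65 and 0.59, although Dkc1 was not called without KI replicate 2, KI replicate 3, WT replicate 1 or WT replicate 3 (adjusted p from 0.0612 to 0.0916). Nop56, a core protein of the methylation complex, rose by 0.83, and Bop1, a factor of the large subunit on chromosome 15, by 1.13. Polr1a, the large subunit of RNA polymerase I, was the member that fell (log2 change -0.89). Fbl was not called without KI replicate 2 (adjusted p = 0.0515). The nucleolar protein genes Ncl and Npm1 did not pass, with 267 and 47.6 FPKM in knock-in and 176 and 37.4 FPKM in WT. The count of higher genes was 11 without KI replicate 2 or WT replicate 1 and 16 of 25 outside chromosomes 1, 8, 14 and 15.

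Protein folding and breakdown were less uniform. Chaperones of the cytosol and mitochondria gave 10 higher and 4 lower of 25 (median 0.33). Hsp90aa1 was at 965 ± 149 FPKM in knock-in and 611 ± 103 FPKM in WT and Hspb1, a small heat shock protein tied to actin, at 252 ± 21.6 FPKM in knock-in and 581 ± 88.0 FPKM in WT (SD, n = 3 each; log2 changes 0.66 and -1.20). Hsp90aa1 was not called without KI replicate 2, WT replicate 1 or WT replicate 2 (adjusted p from 0.0575 to 0.0655). The 10 rises ended at 0.66 on the log2 scale, and fewer were called with a library left out: 2 without KI replicate 1, 3 without KI replicate 2, 5 without KI replicate 3, 0 without WT replicate 1 and 2 without WT replicate 2. Proteasome subunits gave 3 higher and 1 lower of 34, below the share of all genes, and 1 higher without any 1 of the libraries except WT replicate 3.

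Lysosomal genes were lower where they were called. Of 28 tested 13 were lower and none higher (median -0.43). Lamp1, a major membrane protein of lysosomes, had 57.9, 55.9 and 65.7 FPKM in knock-in, against 153, 148 and 143 FPKM in WT (log2 change -1.30, limma, adjusted p = 0.000325). Asah1, acid ceramidase, fell by 1.38 and the proteases Ctsd and Ctsb fell by 0.90 and 0.68. Grn, progranulin, fell by 1.03. The count was 5 without KI replicate 2, 6 without WT replicate 1 and 7 without WT replicate 2. Outside chromosomes 1, 8, 14 and 15 it was 9 of 23 (median -0.31).

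Of replication, mitosis and repair genes 28.9%, 20.7% and 17.9% were called, against 32.4% of all genes. Replication gave 9 higher and 4 lower of 45 (median 0.15), mitosis 5 and 1 of 29 (0.16) and repair 7 and 0 of 39 (0.19). Without KI replicate 2 the higher counts were 4, 1 and 3, and without WT replicate 1 they were 5, 1 and 3, with 2 mitosis and 3 repair genes without WT replicate 2. No replication gene was lower without KI replicate 2. Pold2, a subunit of DNA polymerase delta, was at 145 ± 42.4 FPKM in knock-in and 65.6 ± 18.2 FPKM in WT (SD, n = 3 each; log2 change 1.12, limma, adjusted p = 0.0141). Msh6, a mismatch repair gene, rose by 1.06 and Xrcc6 (Ku70), on chromosome 15, by 1.07.

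Targets of p53 and cell death genes leaned lower. Of 22 p53 targets 7 were lower and 2 higher (median -0.50), and without KI replicate 2, WT replicate 1 or WT replicate 3 none were higher. Pmaip1, the death factor NOXA, had 0.224, 0.151 and 0.177 FPKM in knock-in, against 11.6, 8.74 and 4.99 FPKM in WT (log2 change -2.93, limma, adjusted p = 0.000483). Plk2, a stress kinase, fell by 1.33 and Perp, a membrane protein of death and adhesion, fell by 1.12. Cdkn1a, the cell cycle inhibitor p21, was at 50.5 ± 18.9 FPKM in knock-in and 97.7 ± 3.57 FPKM in WT (SD, n = 3 each; log2 change -1.0) and was not called without KI replicate 2 (adjusted p = 0.0519), and Mdm2 did not pass (84.8 FPKM in knock-in and 106 FPKM in WT). In the BCL2 and caspase list 8 of 24 were lower and 2 higher. Casp8, the caspase of death receptors, fell by 1.59 and the survival factor gene Bcl2l1 fell by 0.97, while Bmf rose by 1.19. The lower count of that list was 4 without KI replicate 2 or WT replicate 2 and 5 without KI replicate 3 or WT replicate 1.

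Chromatin genes changed in both directions. Polycomb proteins, which keep developmental genes silent, gave 11 higher and 4 lower of 30 (median 0.10, but -0.06 outside chromosomes 1, 8, 14 and 15 and -0.04 in the libraries whose file names carry lane number 3). Jarid2, which recruits the histone methylating complex PRC2, had 81.4, 76.2 and 62.3 FPKM in knock-in, against 27, 33.1 and 30.5 FPKM in WT (log2 change 1.25, limma, adjusted p = 0.000929). Phc1, a subunit of the other complex, had 164, 160.3 and 161 FPKM in knock-in and 63.1, 62.1 and 82.3 FPKM in WT (log2 change 1.22). Kdm2b, a demethylase that brings the same complex to CpG islands, rose by 0.85, and Cbx6 and L3mbtl2, both on chromosome 15, by 0.81 and 1.06. Ezh2, the methyltransferase of PRC2, rose by 0.71 but was not called without KI replicate 1 or KI replicate 2 (adjusted p from 0.0527 to 0.0678). Suz12, another core subunit, was at 4.77 ± 0.178 FPKM in knock-in and 5.48 ± 0.253 FPKM in WT and did not pass. The count of higher genes was 7 without KI replicate 1, KI replicate 2 or WT replicate 2, and 7 of 25 outside chromosomes 1, 8, 14 and 15. Histone modifying enzymes gave 6 higher and 9 lower of 54, with 4 lower without KI replicate 2, and remodelling complexes 7 higher and 6 lower of 42, near the share of all genes. Kdm4c, a demethylase gene, rose by 1.28 and Hdac6 by 1.20, while Chd3 fell by 1.10.

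RNA-binding proteins of development included several neural members. Of 32 tested 11 were higher and 6 lower (median 0.13), with 3 lower without KI replicate 2 and 4 without WT replicate 2 or WT replicate 3. Elavl3, a neuronal stabilizer of mRNA, had 5.53, 5.51 and 4.79 FPKM in knock-in, against 0.316, 0.200 and 0.261 FPKM in WT (log2 change 2.32, limma, adjusted p = 0.000216). Msi1, Musashi, was at 24.1 ± 1.75 FPKM in knock-in and 8.24 ± 2.77 FPKM in WT and L1td1, an RNA-binding protein of pluripotent cells, at 385 ± 38.8 FPKM in knock-in and 150.3 ± 33.4 FPKM in WT (SD, n = 3 each; log2 changes 1.48 and 1.37). Zfp36l1, which promotes mRNA decay, fell by 1.30, and the splicing regulator gene Mbnl2, on chromosome 14, fell by 1.27. Of the neuron marker list 3 of 11 listed genes were tested, 1 was higher and 1 lower, Neurog1 was at 0, and the list summed to 32.3 to 39.3 FPKM in knock-in and 45.6 to 61.1 FPKM in WT. Among 17 non-coding and microRNA host transcripts 5 were higher and 1 lower, so 35.3% were called, near the 32.4% of all genes. Miat, a long non-coding RNA, had 7.36, 7.20 and 5.05 FPKM in knock-in and 0.215, 0.0567 and 0.196 FPKM in WT (log2 change 2.69), and Neat1, the scaffold RNA of paraspeckles, fell by 1.43. The snoRNA hosts Gas5 and Snhg5 rose by 0.93 and 1.09. The microRNA machinery gave 2 higher and 1 lower of 15, with 20% called, below the share of all genes.

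Interferon response and antigen presentation genes were mostly lower: 12 of 24 were lower and 1 was higher (median -0.65). Tapbp, tapasin, which loads peptides on class I molecules, had 34.1, 30.1 and 28.9 FPKM in knock-in, against 81.6, 105 and 87.0 FPKM in WT (log2 change -1.52, limma, adjusted p = 0.000394). The class I gene H2-D1 and the immunoproteasome genes Psmb8 and Psmb10 fell (log2 changes -1.28, -1.27 and -1.07). Class I genes are close copies, so reads may be shared among them. Ifitm2 was at 280.1 ± 22.8 FPKM in knock-in and 160.4 ± 3.43 FPKM in WT, and its neighbours Ifitm1 and Ifitm3 at 73.5 ± 14.6 and 95.2 ± 8.20 FPKM in knock-in and 111 ± 18.8 and 129 ± 15.9 FPKM in WT (SD, n = 3 each), so Ifitm2 was higher while both neighbours were lower. Ifitm1 was not called without KI replicate 1, KI replicate 2, WT replicate 1 or WT replicate 2 (adjusted p from 0.0994 to 0.128), and Ifitm3 was not called without KI replicate 1, KI replicate 2, WT replicate 1 or WT replicate 2 (adjusted p from 0.0984 to 0.111). Potassium channels gave 6 higher and 3 lower of 17, with 1 lower without KI replicate 2 or WT replicate 1. The inward rectifier gene Kcnj3 rose by 1.22.

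Transcription factor families differed in direction. Immediate early genes, which answer serum and stress signals, gave 10 lower and none higher of 20 in the AP-1, EGR and ID list (median -0.52). Junb had 86.4, 75.5 and 67.3 FPKM in knock-in, against 194, 241 and 223 FPKM in WT (log2 change -1.51, limma, adjusted p = 0.000394), Fos fell by 1.34 and Id2, an inhibitor of helix-loop-helix factors, fell by 1.45, while Egr1 was at 36.1 ± 1.56 FPKM in knock-in and 35 ± 9.07 FPKM in WT and did not pass. Without KI replicate 2 the count was 6, and outside chromosomes 1, 8, 14 and 15 it was 5. ETS factors gave 9 lower and 4 higher of 16 (median -0.49). Of these 16, 3 lie on chromosomes 1, 8, 14 and 15, whose median levels differed between the lines. The epithelial factor Elf3 and its relative Elf1 fell (log2 changes -1.58 and -1.92), and Ets1 fell by 1.10, whereas Etv4, Etv5 and Etv1, the PEA3 subfamily, rose by 0.63, 0.42 and 1.01. Etv4 was not called without KI replicate 1 or WT replicate 1 (adjusted p from 0.0507 to 0.0801), and Etv5 was not called without KI replicate 1, KI replicate 2, WT replicate 1 or WT replicate 2 (adjusted p from 0.0598 to 0.0859). The count of higher ETS factors was 1 without WT replicate 1 and 2 without KI replicate 1, KI replicate 2 or WT replicate 2.

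KLF factors gave 5 lower and 2 higher of 14, with Klf5 and Klf12, both on chromosome 14, Klf7, Klf10 and Klf6 lower and Klf2 and Klf9 higher. Outside chromosomes 1, 8, 14 and 15 the counts were 1 and 1 of 9. Klf5 was at 64.0 ± 8.21 FPKM in knock-in and 235 ± 2.90 FPKM in WT and Klf2 at 24.5 ± 4.64 FPKM in knock-in and 9.83 ± 3.86 FPKM in WT (SD, n = 3 each; log2 changes -1.87 and 1.29). Forkhead genes gave 3 higher and 3 lower of 20, Foxm1, Foxp4 and Foxj2 being the lower ones, and nuclear receptors 1 and 1 of 16. The shares called in these 2 lists were 30% and 12.5%, against 32.4% of all genes. Among 213 zinc finger genes named Zfp 25 were higher and 19 lower, both under 16.2%, and the counts were 16 and 10 without KI replicate 2, 16 and 11 without WT replicate 1 or WT replicate 2, 16 and 12 without KI replicate 1 and 21 and 12 without KI replicate 3. Zfp703, a repressor gene on chromosome 8, was the furthest from 0, with 1.97, 1.62 and 2.78 FPKM in knock-in, against 21.2, 27.3 and 18.6 FPKM in WT (log2 change -2.90, limma, adjusted p = 0.000183).

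The median level of genes on some chromosomes differed between the lines. The median log2 change of chromosome 15 lay 0.48 above that of all genes, and those of chromosomes 14, 8 and 1 lay at -0.41, -0.36 and -0.36 relative to it, with chromosome 6 at -0.19 and X at 0.11. On chromosome 15, 47.0% of 504 genes tested were higher, against 16.2% of all genes, and 40.5% of 476 genes on chromosome 14, 33.5% of 629 on chromosome 8 and 30.6% of 716 on chromosome 1 were lower. The other autosomes lay within 0.08 of all genes. The 3 knock-in libraries gave alike values, 0.50, 0.51 and 0.46 for chromosome 15 and -0.45, -0.40 and -0.40 for chromosome 14, while each WT library, set against the other 2, stayed between -0.06 and 0.06 on every chromosome. Along chromosome 15 the shift was absent over the first 40 Mb, at 0.07 in both 20-Mb bins, and lay between 0.45 and 0.69 in the 4 bins beyond. On chromosome 1 the bin from 140 to 160 Mb stood at -0.06, with the other bins measured between -0.49 and -0.25. DNA copy number was not measured, and its part in the results above was not tested. Without chromosomes 1, 8, 14 and 15 the calls were 1680 higher and 1396 lower.

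**Figure D5:**
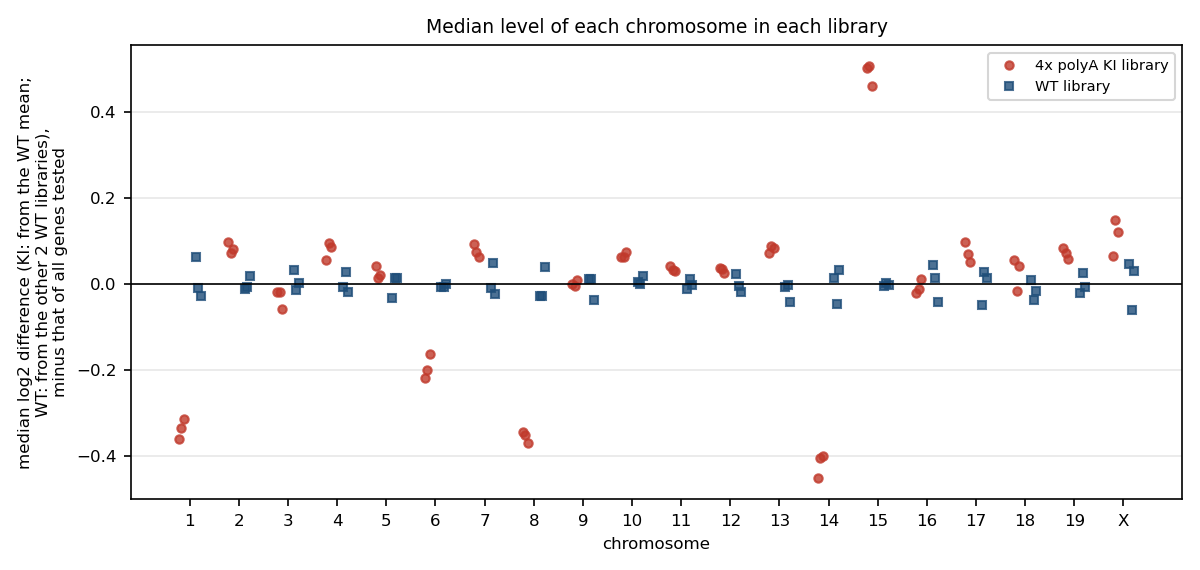
Median log2 difference of the tested genes of each chromosome, minus that of all genes, for the 3 knock-in libraries (red circles, against the mean of WT) and the 3 WT libraries (blue squares, each against the other 2). Knock-in libraries stand at 0.46 to 0.51 on chromosome 15 and below -0.3 on chromosomes 1, 8 and 14, while WT libraries stay near 0.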

How the data were processed

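RNA-seq libraries of 3 knock-in and 3 WT cultures were compared, of 34 samples in the series. Per the labels' protocols, mRNA was selected with beads and libraries were stranded. The authors deposited 1 table per library with FPKM values of 37145 genes. Per the submitters' processing notes, the tools CASAVA and TopHat2 2.0.11 and the build mm10 were used, and the quantifier is not given in the sources used here. Gene positions in these tables do not match mm10: 10.3% of 24711 genes overlapped the span of the same symbol in GRCm38.p6, so positions are given as deposited, and promoter windows were matched by symbol only. The tables hold no counts, so depth is unknown, no counting interval is given and no count model was run.

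Values under 1e-06 FPKM were set to 0, and 6 genes with a failed estimate in any library were left out. The log2 of FPKM + 1 was fitted with limma 3.58.1 in R 4.3.3 (trended prior, two-sided, BH threshold 0.05) for genes at a mean of 1 FPKM or more. In a test on simulated data for the 13129 genes of this comparison, the fit found 54 of 100 genes changed by a log2 of 1 and 92 of 100 changed by 2, with 9 false calls. Only those genes were changed there and noise was independent between genes, whereas 32.4% of genes were called in the data. These rates may therefore not hold for the real comparison. Groups came from titles. The members, the lists and the marker lists were chosen with earlier results of these data known, so lists were described by counts and medians, without a test. A symbol under several identifiers was taken at the one with the highest mean.

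Named genes were Evx1as and Evx1, the 12 largest log2 changes each way among called genes at 10 FPKM or more in the higher line with no overlap, the 8 largest gains and losses of mean FPKM, genes under 0.1 FPKM in one line and at 5 FPKM or more in the other, and from each list up to 8 called members at 5 FPKM or more, with other list members given by their values. Streak and epiblast markers, pseudogenes, predicted and mitochondrial genes were left out of all but the first and last. Alternatives were a pseudocount of 0.1, no filter, a filter at 5 FPKM, scaled libraries, a replicate block, each library left out, chromosomes 1, 8, 14 and 15 left out, and the libraries of lane 3 alone. Samples that are embryo sections were not used here. A few genes that these rules name are not reported here, though counts and medians include them.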

Additional observations from a re-analysis of the deposited data

How the results depend on the processing

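No gene called in both fits changed direction under any alternative that was run. The counts of 2133 higher and 2122 lower genes became 2097 and 2094 with a pseudocount of 0.1 FPKM, 1731 and 1774 with no filter, 1689 and 1664 with a filter at 5 FPKM and 2099 and 2179 after scaling. With 1 library left out they ranged from 1272 to 2011 higher and from 1375 to 1954 lower, both lowest without KI replicate 2, and 1369 higher genes were called without WT replicate 1. Each such fit has fewer samples. Without chromosomes 1, 8, 14 and 15, which removes genes, 1680 were higher and 1396 lower. With the replicate number as a block, 1547 were higher and 1622 lower. Deviations of same-numbered libraries correlated at -0.117, -0.0535 and -0.0512, and no library correlated best with its own number. These weak correlations, of deviations from a mean of 3, cannot decide whether same-numbered libraries were handled together. Of 358 named genes, 79 lost the call without KI replicate 2, 69 without WT replicate 1, 74 with no filter, 47 under the block and 2 after scaling. Libraries whose file names carry lane number 3 (KI replicates 2 and 3 and WT replicate 2) gave no counts of calls, since WT then has 1 library. With them 41 of 47 list medians moved by less than 0.188, the median standard error (SE) of a gene's log2 change. Of the 358 named genes, 111 moved by more than a set multiple of their own SE. Depth is unknown, so a gene at 0 is only listed at 0. Differences of the lines other than the insertion, chromosome dosage and the share of cell types in the cultures were not measured.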
